A study of Drosophila melanogaster with 3 samples.

Results

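Chromatin bound by the transcription factor Atf3 was mapped in Drosophila melanogaster embryos, and the regions described here are the binding peaks that lie between genes and away from promoters. They were chosen by position alone. The summit had to lie in no annotated gene and more than 500 bp from every transcription start site (TSS), on arms 2L, 2R, 3L, 3R, 4 or X of the dm6 assembly. Of the reproducible peaks, 350 (12.1%) met the rule. The rest were 989 peaks that lay inside genes but over 500 bp from a TSS and are called genic distal, and 1557 that lay within 500 bp of a TSS and are called promoter peaks.

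Whole embryos of both sexes were collected at 0 to 24 h from strain A3-3-GFP, a transgenic line that stably expresses Atf3 with green fluorescent protein (eGFP) at its C-terminus. The tagged protein was precipitated with an antibody against GFP from chromatin sonicated to 200 to 800 bp. The 3 biological replicates carry the same transgene and form 1 group, with no treatment and no group for comparison. Because whole embryos of many ages and tissues were mixed, strong binding in few cells and weak binding in many cannot be told apart. The labels do not name the promoter that drives the fusion.

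Atf3 is a basic leucine zipper (bZIP) protein of the ATF/CREB family. Such proteins grip DNA as dimers, and the fly protein can pair with Jun, the partner of Fos in the AP-1 complex. Family members recognise the cAMP response element (CRE), a palindrome whose arms also occur in related elements. Peaks far from promoters often mark enhancers, which switch genes on from a distance. In the fly embryo, enhancers in gene-free stretches control many patterning genes.

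Ranked by the difference in share from flanking windows, the leading 6-letter word at the intergenic summits belonged to none of the bZIP elements. Longer elements could not enter this ranking. Among all 6-letter words within 100 bp of each summit, AGTGTA stood furthest above the windows 600 bp to either side, with 92 peaks (26.3%) against a mean of 7.00%. The next, ACACTG, overlaps it on the opposite strand and was held by 85 peaks (24.3% against 7.14%). Both belong to a 7-letter word, CAGTGTA, which also occurred as CAGTGCA. One or the other stood in 95 of 350 windows (27.1%, 95% Wilson interval 22.8 to 32.0) and in 20 and 16 of the windows to either side (mean 5.14%). The 10 strongest peaks with the word ahead of the summit, leaving out one arm, are shown from RefSeq's release 6 genome to make their alignment visible. Each reads along the word's own strand, with the word in capitals, and is named by the gene with the nearest TSS.
CG43131, chr3R:5113172-5113232, minus strand: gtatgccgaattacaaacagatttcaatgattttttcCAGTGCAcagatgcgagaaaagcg
lncRNA:CR42794, chrX:5696553-5696613, plus strand: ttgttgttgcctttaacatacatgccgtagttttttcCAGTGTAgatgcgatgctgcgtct
slp2, chr2L:3832549-3832609, plus strand: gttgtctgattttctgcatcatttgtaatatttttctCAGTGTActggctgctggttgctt
lncRNA:CR45937, chr3L:18236069-18236129, plus strand: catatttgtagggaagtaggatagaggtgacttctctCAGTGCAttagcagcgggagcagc
CG43401, chr2L:1433943-1434003, plus strand: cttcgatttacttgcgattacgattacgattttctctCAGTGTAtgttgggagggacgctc
lncRNA:CR45287, chr2L:5476747-5476807, minus strand: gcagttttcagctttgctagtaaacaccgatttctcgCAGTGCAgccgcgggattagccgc
lncRNA:CR45303, chr2L:14502685-14502745, minus strand: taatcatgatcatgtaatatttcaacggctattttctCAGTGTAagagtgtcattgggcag
lncRNA:CR45355, chr2L:16535856-16535916, minus strand: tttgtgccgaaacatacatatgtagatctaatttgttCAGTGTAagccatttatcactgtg
E(spl)malpha-BFM, chr3R:26009143-26009203, plus strand: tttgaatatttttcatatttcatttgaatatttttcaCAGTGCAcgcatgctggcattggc
lncRNA:CR44197, chr2L:13083862-13083922, plus strand: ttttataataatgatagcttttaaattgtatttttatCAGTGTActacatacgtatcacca

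The bases just before the word were alike as well. A run of T precedes the capitals in most of these lines. Over the 90 peaks with the word 25 to 125 bp ahead of the summit, T stood 5, 6 and 7 bp before it in 83.3%, 90.0% and 83.3%. T made up 30.9% of all bases in the 350 windows. The base 2 bp before the word was C in 55.6% and T in 31.1%. The word ended in TA in 47 of the 90 peaks and in CA in 43.

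The aligned bases gave a longer pattern, TTTNT followed after any 2 bases by CAGTG, where N is any base. It stood in 72 intergenic windows (20.6%, interval 16.7 to 25.1) and in 6 and 8 of the flanking windows (2.00%), a ratio of 10.3. Among genic distal peaks 131 windows held it (13.2%, against 1.47% in flanks), and among promoter peaks 63 (4.05%, against 0.450%). The ratio to the flanks was thus 9.03 and 9.00 in these classes, close to that of the intergenic peaks, while the share was higher between genes. The eligible intergenic sequence holds the pattern 2364 times, and 80 of these (3.38%) lay 25 to 125 bp ahead of an intergenic summit, against 3 (0.127%) at the same distance behind. These words were read off the same peaks they describe, so no test is given.

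The word lay mostly on 1 side of the summit. Along the strand that carries it, the 7-letter word lay 25 to 125 bp ahead of the summit in 90 intergenic peaks (25.7%) and the same distance behind it in 15 (4.29%). The bins from 50 to 75 bp and from 75 to 100 bp held the most, with 34 peaks each. For genic distal peaks the shares were 18.6% ahead and 3.94% behind, and for promoter peaks 7.06% and 3.53%. The longer pattern was more one-sided, with 70 intergenic peaks ahead and 3 behind. For scale, the nearest TSS of promoter peaks lay ahead of the summit, along the direction of transcription, in 80.0%, with a median offset of 87.0 bp.

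**Figure D1:**
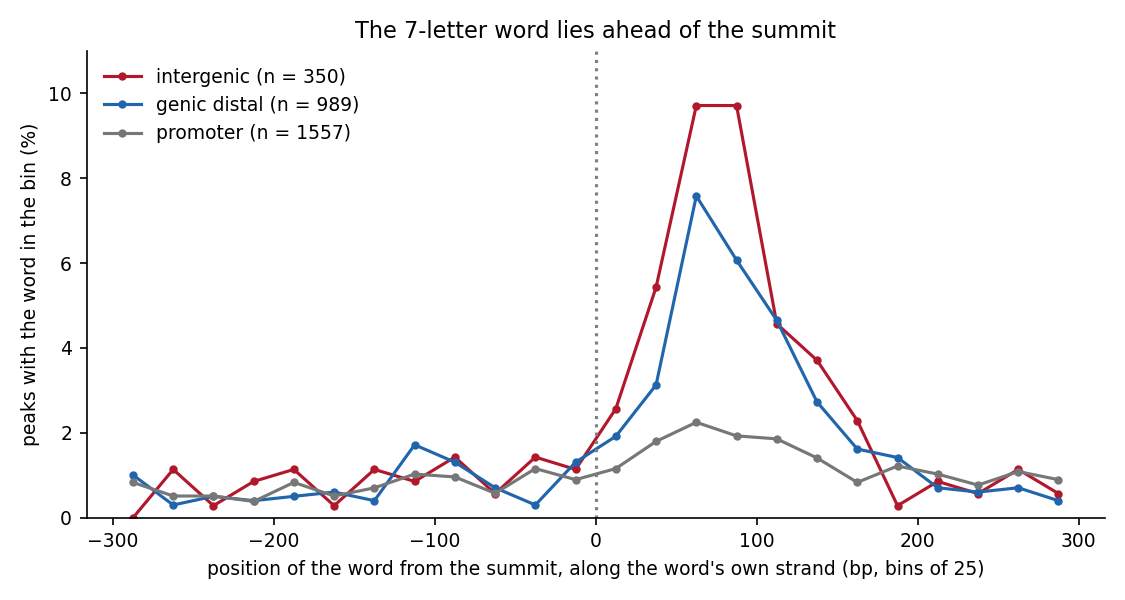
The share of peaks (%) with the 7-letter word in each 25 bp bin is plotted against its distance from the summit (bp, positive ahead along the word's own strand) for 350 intergenic, 989 genic distal and 1557 promoter peaks. The intergenic curve reaches 9.71% between 50 and 100 bp ahead and stays at or under 1.43% behind the summit.

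The word appeared in each replicate's own list. Among the intergenic top peaks, meaning the calls of highest signal in that replicate, as many as there are reproducible peaks, 21.9% of replicate 1, 27.3% of replicate 2 and 25.2% of replicate 3 held the 7-letter word. The longer pattern was found in 16.1%, 20.2% and 17.1%. Replicate 1 was lowest for both. In the flanks of these peaks the 7-letter word stood in 6.27%, 5.52% and 5.92%. Of the 350 peaks, 74.3%, 79.1% and 81.7% were among the top peaks of replicates 1, 2 and 3. The lists are thus no independent check of a word read off the 350. The 4690 intergenic pooled calls below the reproducible set held the word in 11.2%, against 5.62% in their flanks. Within the 350 peaks, 24.0% of the 175 peaks above the median signal and 30.3% of the 175 below it held it, and 4 of the 15 strongest did.

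Peaks with the word ahead lay farther from start sites. Their median distance to a TSS was 4418 bp, against 2193 bp for the other 260, and their median signal was 115 against 120. They were among the top peaks of replicate 1 in 71.1% against 75.4% of the others, of replicate 2 in 86.7% against 76.5%, and of replicate 3 in 82.2% against 81.5%. The direction thus differed between replicates. The word lay on the strand of the nearest gene in 49 of 90 peaks (54.4%). These are descriptions with no test.

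The binding site for which the ATF/CREB family is known was rare at the intergenic summits, as it was in every class. The CRE palindrome, TGACGTCA, stood in 1 of 350 windows (0.286%), and in 0 and 1 of the flanking windows. Over all reproducible peaks the share was 1.52%, against a mean of 0.328% in their flanking windows. It was 1.92% against 0.506% for genic distal peaks and 1.54% against 0.257% for promoter peaks. The differences between classes, given below, were not called.

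The site of the AP-1 complex, TGACTCA, stood in 6 windows (1.71%, flanks 1.29%). All 6 lay among peaks of modest signal, from 83.1 to 104. One lies 2587 bp upstream of kay, which encodes the fly Fos protein, and ranked 2821, 2919 and 4235 in the replicates. Another lies 5012 bp from rpr, an activator of apoptosis, with ranks of 1761 and 1995 in replicates 1 and 3 and no matching call in replicate 2. The 6 sites are shown with 10 bases to either side, the site in capitals, to let their surroundings be compared.
Chsy, chrX:15599917-15599943, minus strand: gtgaattgcgTGACTCAagagcagcta
rpr, chr3L:18403523-18403549, minus strand: actcgcagcaTGACTCAtaggcgatgt
tRNA:Ile-TAT-1-2, chr3L:779280-779306, minus strand: ggccggcgggTGACTCAtgtgtattta
kay, chr3R:29763351-29763377, minus strand: gatatgcaaaTGACTCAtgatttatgc
CG43759, chrX:18923735-18923761, minus strand: tatctttattTGACTCAaaaaaagtaa
CG43901, chrX:10905234-10905260, plus strand: agattaccagTGACTCAaaatagcttt

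A composite site of ATF4 and C/EBP factors, TGATGCAA, stood in 5 intergenic windows (1.43%) and in 0 and 2 of the flanking windows. Its share was 0.506% in genic distal and 0.514% in promoter peaks (adjusted p = 0.40 and 0.27, Fisher exact test). The 4 that may be shown follow in the same form.
lncRNA:CR44603, chr2L:1632945-1632972, minus strand: ctaaatttgaTGATGCAAtacacgcatt
CG32645, chrX:13135907-13135934, minus strand: attcataaaaTGATGCAAtcatacttta
spel1, chr2L:14370075-14370102, plus strand: ttaaaattttTGATGCAAaaatatgttt
NimC3, chr2L:14020870-14020897, plus strand: gcgaatagatTGATGCAAcatgctggat

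None of the 13 motifs searched differed between intergenic and genic distal peaks past an adjusted p of 0.05 (0% of the motif tests called), although 1 passed unadjusted, and 1 of 13 (7.69%) differed from promoter peaks. The one called was DRE, TATCGATA, the element of the promoter-binding factor DREF. It stood in 2 intergenic windows (0.571%) and in 122 promoter windows (7.84%), an odds ratio of 0.0676 (adjusted p = 1.2e-07, two-sided Fisher exact test). Under the alternatives run, that p ranged from 2.6e-14 to 0.016.

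The CRE palindrome was the motif that passed unadjusted against genic distal peaks. It stood in 19 of 989 genic distal windows (1.92%) and 24 of 1557 promoter windows (1.54%). The unadjusted p against genic distal peaks was 0.036, and the adjusted p was 0.24, with 0.27 against promoter peaks. Of 20 CRE palindromes at distal summits 19 lay inside genes, where 989 of the distal peaks lie against 350 between genes. The shorter CRE core, TGACGT, which every palindrome holds, stood in 14 intergenic windows (4.00%, flanks 3.29%), 6.07% of genic distal and 6.49% of promoter windows (Fisher exact test, adjusted p = 0.45 and 0.27). Within 50 bp of the summit the core was called, at 0.571% of intergenic against 3.34% of genic distal and 3.53% of promoter peaks (Fisher exact test, adjusted p = 0.026 and 0.019, within ranges over all alternatives of 0.026 to 1.0 and 0.017 to 0.85). In the replicates' own intergenic top peaks the palindrome stood in 3 of 311, 1 of 362 and 2 of 397.

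GAGA repeats, GAGAGA, the site of the GAGA factor that opens chromatin, stood in 47 intergenic windows (13.4%, flanks 9.29%). The share was 14.2% in genic distal and 8.99% in promoter peaks (Fisher exact test against promoter peaks, adjusted p = 0.22 and unadjusted 0.017). With a TSS window of 250 bp that difference was called, at 13.5% against 7.43% (Fisher exact test, adjusted p = 0.0025, within a range over the alternatives of 0.0025 to 0.76). The site of Zelda, CAGGTAG, an activator of the early embryonic genome, stood in 6 intergenic windows (1.71%) and in 1 and 2 flanking windows. The share was 1.31% in genic distal and 0.514% in promoter peaks (Fisher exact test, adjusted p = 0.77 and 0.24). A palindrome of the CRE's letters in another order, GTACGTAC, stood in 1 intergenic window, as many as the CRE itself. In the other classes it stood in 1 of 989 genic distal and 1 of 1557 promoter windows, against 19 and 24 for the CRE palindrome.

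**Figure D2:**
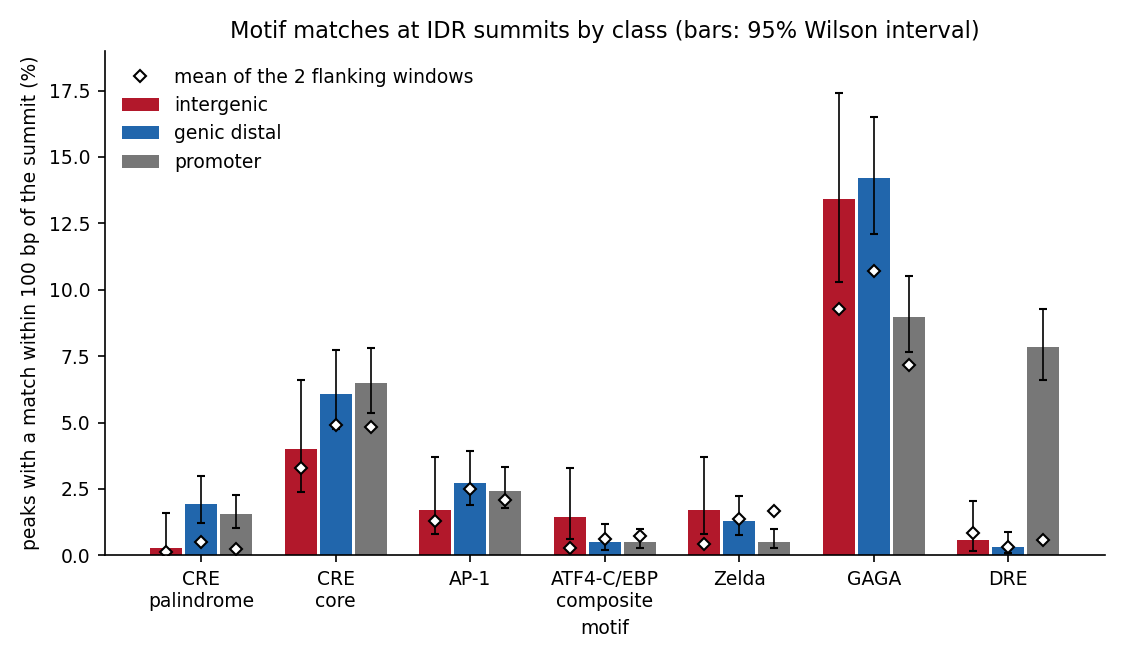
Bars give the share of peaks (%) with a motif within 100 bp of the summit for the 3 classes, with 95% Wilson intervals, and diamonds give the mean of the 2 flanking windows. The intergenic bar is at 0.286% for the CRE palindrome and 0.571% for DRE, while DRE reaches 7.84% in promoter peaks.

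Peaks between genes were a small share of the reproducible set, 12.1% (interval 10.9 to 13.3). The same rule gave 311, 362 and 397 of the top peaks of replicates 1, 2 and 3, or 10.7%, 12.5% and 13.7% (mean 12.3% ± 1.49, SD, n = 3). Sequence that meets the rule makes up 27.4% of the arms. Going down the pooled calls by signal in bins of the same size, the intergenic share was 12.1%, 14.4%, 16.3%, 17.7%, 18.1%, 19.5%, 20.6%, 21.0% and 21.1%, and 22.8% in the last 1690. It was higher in each weaker bin and below the share of bases in all. Of 5040 intergenic pooled calls, 6.94% were kept in the reproducible set, against 6.49% for genic distal and 20.8% for promoter calls (10.4% of all calls).

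**Figure D3:**
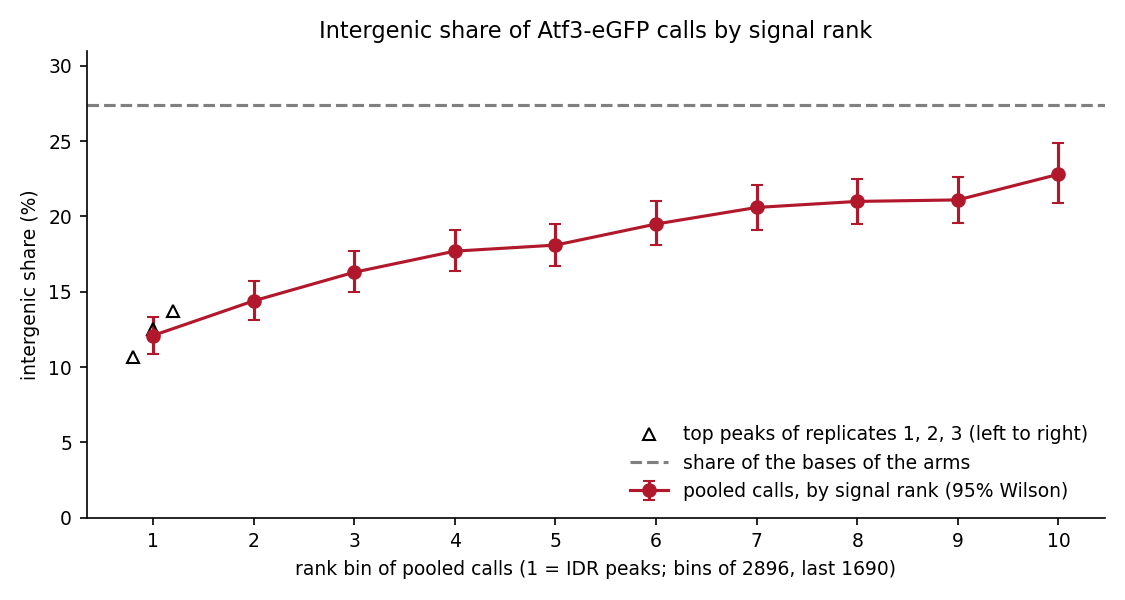
The intergenic share (%) is plotted by bin of pooled calls ranked by signal, with 95% Wilson intervals, and for the top peaks of each replicate as triangles. The share is 12.1% in the first bin and 22.8% in the last, and the dashed line marks the 27.4% of bases that meet the rule.

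The intergenic peaks recurred in the replicates at shares near those of the other classes, and neither difference passed the test. A matching call was present in all 3 replicate lists for 341 of 350 (97.4%), against 94.3% of genic distal and 94.6% of promoter peaks. The reproducible list was made from these replicates, so high shares were built in. Among the top peaks of all 3 were 179 (51.1%, interval 45.9 to 56.3), where the share over all reproducible peaks was 53.0%. It was 50.2% for genic distal peaks (odds ratio 1.04, adjusted p = 0.76) and 55.2% for promoter peaks (odds ratio 0.848, adjusted p = 0.34, two-sided Fisher exact test). A further 115 were top in 2 replicates and 56 in 1.

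Signal, the authors' own value for a peak, was used within each list only. In the reproducible list it ran from 79.8 to 1035 with a median of 119. The median was 50.5 in the list of replicate 1, 33.8 in that of replicate 2 and 37.4 in that of replicate 3, which need not share a scale. On the log2 scale this differed from genic distal peaks by -0.09, 0.02 and 0.01 in replicates 1, 2 and 3 (mean -0.02 ± 0.06, SD, n = 3; exact sign-flip permutation p = 1.00). Against promoter peaks the differences were -0.15, -0.21 and -0.07 (mean -0.15 ± 0.07). Intergenic peaks were lower in 3 of 3 replicates, and the exact two-sided p of 0.25 is the smallest that 3 replicates allow.

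The arms held unequal numbers. Arms 2L and 3L carried 96 and 106 of the peaks, which is 16.8% and 18.2% of the reproducible peaks there. Arms 2R and 3R carried 46 (8.90%) and 62 (8.91%), X carried 35 (6.77%), and the small arm 4 carried 5 of its 12. Per Mb of eligible sequence there were 14.2 on 2L, 11.6 on 3L, 8.05 on 3R, 6.51 on X, 6.14 on 2R and 18.5 on arm 4. The intervals of 2L and 3L, 13.9 to 20.1 and 15.3 to 21.6, did not meet those of 2R, 3R and X, the highest of which ended at 11.7.

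Most of the peaks were not just outside a promoter. The median distance to a TSS was 2936 bp, with 207 peaks over 2 kb, 108 over 5 kb, 42 over 10 kb and 5 over 20 kb away. The nearest TSS was that of a gene pointing away from the peak in 222 (63.4%), so that these lay upstream. The share of eligible bases that lie upstream in this way was not measured, so this count has no background. Between genes that both point away lay 96 peaks (27.4%), where 20.7% of eligible bases lie. Tandem genes flanked 175 (52.5% of bases), and genes that point at each other flanked 79 (22.6%, 26.8% of bases). At least 1 neighbour was not protein coding for 202 peaks (57.7%), mostly long non-coding RNA genes. The share of eligible bases with such a neighbour was not measured either. GC content at the summit had a median of 37.3%, below the 40.8% of the flanks.

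At the limit of the rule, the 5 peaks just inside lay 501, 501, 504, 514 and 515 bp from a TSS, with signals of 120, 145, 81.2, 99.7 and 98.4. The 5 just outside lay at 499, 497, 485, 483 and 468 bp, with signals of 80.2, 382, 120, 82.7 and 220. Of 1170 summits in no gene, 820 were within 500 bp of a TSS. A transposable element held 2 of the 350 summits, and 13 had another reproducible summit within 300 bp.

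The strongest intergenic peak lay between Su(z)2, a Polycomb group gene, and CG13323, at chr2R:13035169-13035520. Its signal was 448, 284 and 304 in replicates 1, 2 and 3, where it ranked 7, 15 and 12. It lies 11908 bp from the nearest TSS. A second Polycomb group gene of the same neighbourhood, Psc, flanked a peak of signal 391 at chr2R:12958082-12958262, which read 143, 117 and 127. In all, 5 peaks had Psc as a nearest coding gene.

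Peaks 2 and 10 in order of signal lay on either side of the non-coding gene lncRNA:CR45643, near tara, a regulator of the cell cycle. The first, at chr3R:16222333-16222648, read 357, 209 and 242. The other, at chr3R:16224394-16224630, read 177, 122 and 115. All 3 replicates ranked the first peak higher.

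Between CycB, the mitotic cyclin B, and blw lay a peak at chr2R:22802817-22803105 that read 280, 162 and 185. Beside CG31668, at chr2L:2202248-2202561, the values were 252, 154 and 160. Beside CG43131, at chr3R:5113129-5113420, they were 206, 144 and 162. The ranks of these 3 peaks lay between 30 and 76 in every replicate.

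The peak between slp1 and slp2, forkhead factors that act in segmentation, lies 4306 bp upstream of slp2 at chr2L:3832407-3832651 and read 183, 109 and 154. The peak between sp3 and the homeobox gene C15, at chr3R:21520245-21520490, read 197, 133 and 158. At RasGAP1, which turns Ras signalling down, the peak at chr3L:9855823-9856060 read 182, 111 and 132. The peak at chr2R:8014275-8014506 had CG14762 as nearest gene and Optix, an eye-specifying homeobox gene, as the coding gene 16878 bp to the other side, and read 153, 108 and 152. The peak at chr3R:16798785-16799015 lay 8332 bp from the Hox gene abd-A and read 142, 108 and 124.

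The remaining strong peaks lay beside lncRNA:CR42794 on X (signal 463), lncRNA:CR43437 on arm 4 (367) and Atf3 itself (364). All 15 were among the top peaks of every replicate. They were chosen by signal in a list made from these same replicates, so high ranks there follow largely from the choice. Ranks ran from 7 to 317 in replicate 1, from 15 to 196 in replicate 2 and from 12 to 166 in replicate 3.

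**Figure D4:**
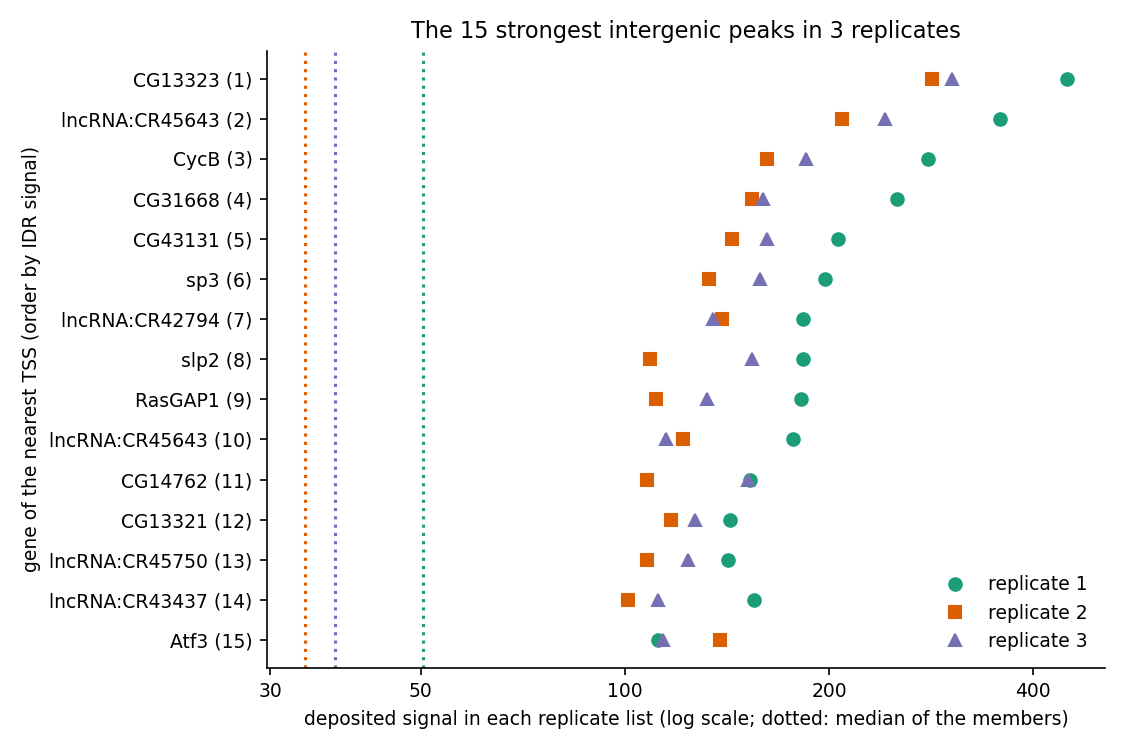
Deposited signal (log scale) in the 3 replicate lists is shown for the 15 intergenic peaks of highest signal, labelled by the gene of the nearest TSS, with dotted lines at the medians of all members (50.5, 33.8 and 37.4). Each symbol lies above the median of its own replicate, which follows largely from choosing the peaks by signal. The lists need not share a scale.

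At Atf3 (FBgn0028550, chrX:1242740-1275284), 3 of the 8 reproducible peaks within 20 kb were intergenic. The strongest, 1931 bp upstream at chrX:1277110-1277308, read 112, 138 and 114. The second, at chrX:1279044-1279443, read 33.7 and 10.3 in replicates 2 and 3, and its ranks were 1738, 1595 and 29322. The third, past the other end of the gene at chrX:1242021-1242420, read 82.7 and 27.2 in replicates 1 and 2 and had no call in replicate 3. Binding at Atf3 and any extra copies of the tagged locus in this line cannot be told apart. Without the peaks within 20 kb of Atf3, no call among the tests changed. The eye color gene w, a common marker of transgenes, had 2 reproducible peaks within 20 kb and no intergenic one.

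The 3 peaks farthest from any TSS had signals of 129, 228 and 110, where the median of all members was 119. In the 75047 bp without genes between NijA and CG43245, a peak at chr3L:10735080-10735479 lay 36645 bp from the nearest TSS and read 62.2, 28.1 and 35.6. A neighbour at chr3L:10739866-10740265, 31859 bp away, was stronger, with 92.1, 63.8 and 61.9. The third lay 26323 bp downstream of the TSS of vvl, a POU-domain factor of the trachea and nervous system, and 21540 bp past the gene. It read 54.7, 33.2 and 14.6. Its rank in replicate 3 was 12022, well outside the top peaks.

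The 350 peaks fell in 271 gene-free intervals, and 216 of these held 1 peak. The fullest, of 19063 bp between lncRNA:CR44363 and CG7560 (chr3L:11406095-11425157), held 6, with signals from 90.9 to 357, and 5 of them were top peaks of all 3 replicates. The interval between lncRNA:CR44603 and lncRNA:CR45695 (chr2L:1626022-1646931) held 5, from 117 to 350. That between NijA and CG43245 also held 5, from 86.9 to 228, as did that between tRNA:Ile-TAT-1-2 and CG13898, from 93.2 to 194, which ranked after it by summed signal only. Counting coding neighbours only, hng3 flanked 10 peaks, CG13898 9, and both RFeSP and chinmo, a BTB zinc-finger factor of neuronal timing, 8. Another reproducible summit lay within 5 kb of 140 peaks (interval 35.0% to 45.2%), against 45.6% of genic distal and 39.7% of promoter peaks.

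As the nearest coding gene on either side, 467 of 13945 genes (3.35%) flanked an intergenic peak, or 5.90% of the 7913 beside eligible sequence. Among 265 genes of 18 lists, 44 did so, next to 57 peaks. The length of gene-free sequence beside a gene varies, so densities are given as well. Per Mb of eligible sequence beside the listed genes there were 16.7 peaks, against 9.53 over all such sequence.

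Of 15 gap and pair-rule genes, which divide the embryo into segments, 5 flanked a peak (slp1, slp2, hry, kni and odd), with 18.0 peaks per Mb. Of 17 dorsoventral patterning genes 5 did, with 46.8 per Mb. There, Doc1 and Doc2, T-box factors of the amnioserosa, each flanked 5 peaks, 4 of which lay between them and were shared. The strongest of these (signal 170) ranked 1253, 724 and 832. Among segment polarity and Wnt genes, 4 of 12 flanked a peak, with 17.2 per Mb. The one between wg and Wnt4, both secreted Wnt ligands, had a signal of 137 and ranked 1769, 988 and 1541.

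Among the signalling lists, of 13 Notch and E(spl) genes 4 flanked a peak each, with 42.4 per Mb. The strongest, next to E(spl)mbeta-HLH, a repressor switched on by Notch, had a signal of 221 and ranked 655, 706 and 297. The peak beside fng, a glycosyltransferase that modifies Notch, had a signal of 102 and ranked 1296, 4375 and 2697. All 3 of the JAK/STAT genes that flanked a peak, upd1, upd2 and upd3, encode cytokines. The peak between upd1 and upd3 (signal 87.2) ranked 2530, 2360 and 3192. In the EGFR and Ras list, sty, an inhibitor of receptor tyrosine kinase signalling, flanked 4 peaks, the strongest of which (348) ranked 220, 210 and 122. The ETS repressor aop, which stands in this list and in that of the JNK pathway, flanked 2. The EGFR and Ras list had 18.0 peaks per Mb.

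Of 18 bZIP genes, Atf3, slbo, CrebA and kay flanked 6 peaks in all (43.3 per Mb). At Atf3 itself lay 3 of the 6, to which the limit given above for that gene applies. The peak beside slbo, a C/EBP factor of border cells, had a signal of 110 and ranked 3220, 1375 and 2052. That beside kay, with the AP-1 site shown above, had a signal of 87.9. Of the 17 JNK pathway genes 2 flanked a peak, aop and kay.

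The lists of tissue regulators had 16.6 (trachea and gut), 17.4 (imaginal appendage), 12.8 (proneural and neuroblast) and 12.5 (mesoderm and muscle) peaks per Mb. In the trachea and gut list, drm (signal 181, ranks 2073, 474 and 562) and sob (110, ranks 1573, 2538 and 4479), both odd-type zinc-finger factors, flanked peaks, as did vvl. Of neural factors, Sox21b had a peak of 184 that ranked 1439, 791 and 378, and pros one of 150, 59260 bp away, that ranked 1031, 2006 and 727. The Pax6 gene toy had one of 129, with ranks of 1337, 2369 and 1168. In the mesoderm list, bin, a forkhead factor of the visceral muscle, had one of 142 (ranks 1779, 1166 and 1074) and eyg one of 87.9 (ranks 3694, 1562 and 2289). The adhesion genes caps (135) and Fas3 (99.8), and the ecdysone-response gene Eip75B (83.5), each had 1. The neuronal adhesion list (5.29 per Mb) and the Hox list (8.37) were below the 9.53 per Mb of all eligible sequence. The ecdysone list (10.3) was near it. Eip75B's peak ranked 1902, 3379 and 15778, so that replicate 3 placed it far lower. No gene flanked a peak among 24 of Imd and Toll immunity, 19 of cytoplasmic ribosomal proteins and 14 of the heat shock list. These lists have only 0.0473, 0.270 and 0.0347 Mb of eligible sequence beside them, and the share over all coding genes is 3.35%, so few or no peaks would be found there at the overall density.

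**Figure D5:**
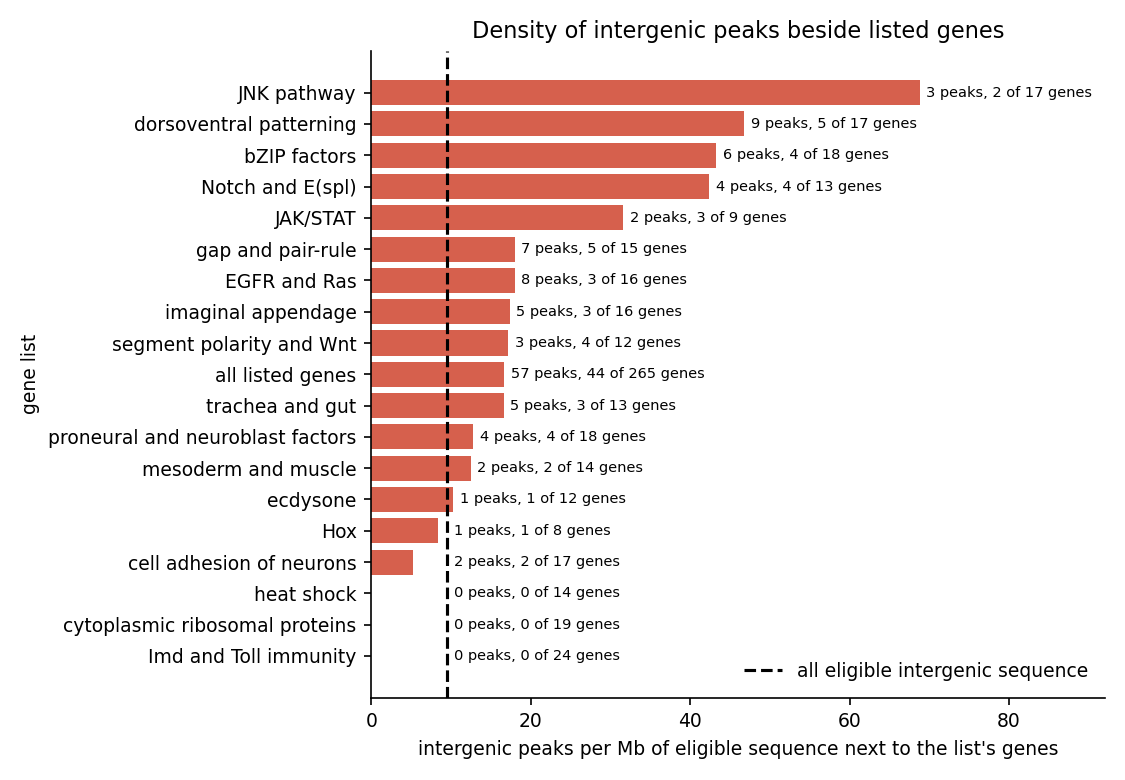
Bars give the number of intergenic peaks per Mb of eligible sequence beside the genes of each list, with the number of peaks and genes written at each bar, and the dashed line marks the 9.53 per Mb of all eligible sequence. The JNK pathway (68.8 per Mb) rests on 3 peaks and JAK/STAT (31.6 per Mb) on 2, while 3 lists are at 0.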

How the data were processed

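The deposited peak lists describe chromatin immunoprecipitation with sequencing from 3 biological replicates of 1 group. Per the labels, each replicate and the pool had a relaxed list that includes background calls, and one list keeps calls whose rank repeats across replicates, judged by the irreproducible discovery rate (IDR). Which aligner, caller and IDR threshold were used is not given in the sources used here. Peak signal is the authors' deposited value and was used only to describe and rank peaks within a list. The lists carry no read totals, so depth is unknown and intervals cover counting error only. Replicate lists held 30000 calls each and the pooled list 27754. The 2896 IDR peaks are the 2896 pooled calls of highest signal.

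Summits were placed on the release 6 (dm6) genome from RefSeq with Ensembl annotation release 115, without pseudogenes and transposable elements (17896 genes, 23722 transcription start sites). The dm3 lists were not used. Scripts ran under Python 3.11.15 with scipy 1.17.1, pandas 2.3.3, numpy 2.4.6 and matplotlib 3.10.9. A replicate call matched a peak when it covered at least 50% of the shorter interval. The 2896 calls of highest signal in each replicate are its top peaks. Motifs were searched on both strands in the 201 bp at each summit, and in windows centred 600 bp to either side. Motif shares and replicate agreement were tested with the two-sided Fisher exact test, adjusted by the Benjamini-Hochberg method over 26 motif tests and over both agreement tests. Signal was tested by exact sign flips over the 3 replicates. Shares have 95% Wilson intervals. Peaks are not replicates, so p-values over peaks say nothing of variation between embryos. The class and motif steps were tested on simulated data.

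Peaks named are the 15 of highest signal, each with a full cAMP response element (counted, but its region is not reported here), the 3 farthest from a start site, the 3 gene-free intervals with most peaks (ties by summed signal), up to 2 genes per list, and Atf3 and w. The members, motifs and 18 gene lists were chosen with earlier results of these data known. Of 275 list entries, 2 symbols were not matched. Alternatives covered the start-site window, the annotation, the peak set, the motif window and how calls were matched. They also covered how many top peaks were taken and leaving out each replicate, for which the IDR list was not remade.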

Additional observations from a re-analysis of the deposited data

How the results depend on the processing

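No paired analysis was possible because there is only 1 group, although the signal differences were taken within each replicate. The intergenic share of 12.1% moved beyond the replicate SD under 3 alternatives, each by its own construction: it was 15.9% with a start-site window of 250 bp, 9.84% with 1000 bp and 10.3% when the whole interval had to be clear. Leaving out each replicate in turn, the share among IDR peaks that were top peaks of both remaining replicates was 11.7% to 12.0%. The IDR list itself was not remade. The count of motifs called against genic distal peaks went from 0 to 1 within 50 bp of the summit (the CRE core). Against promoter peaks it went from 1 to 2 with a 250 bp window (GAGA added), in the upper 50% of the IDR peaks by signal and within 50 bp of the summit (CRE core added in both). Among the IDR peaks that were top peaks of both remaining replicates these counts stayed at 0 and 1. The odds ratio of agreement with genic distal peaks ranged from 0.932 to 1.13 without each replicate. With promoter peaks it ranged from 0.830 to 0.948, turned to 1.21 in the upper 50% and was 1.00 for the top 5000 peaks. The log2 signal difference from genic distal peaks ranged from -0.04 to 0.02 without each replicate and was 0.02 in the upper 50%. From promoter peaks it ranged from -0.18 to -0.11 without each replicate and was -0.09 in the upper 50%. No agreement difference passed 0.05 under any alternative run; the signal test cannot pass it with 3 replicates or fewer. The causes of these turns were not tested. Leaving out peaks near Atf3, or summits near another summit, was chosen after seeing the data and changed no call. Of 159 results under an alternative, 143 kept their direction and side of the threshold or stayed within the replicate spread. Without read totals, nothing can be said of what depth limits.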
